A study of Homo sapiens with 4 samples.

Results

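The SEC61 translocon and the signal sequence receptor were followed as 10 genes, chosen by symbol: SEC61A1, SEC61A2, SEC61B and SEC61G of the channel, SEC62 and SEC63 beside it, and SSR1, SSR2, SSR3 and SSR4 of the signal sequence receptor, also called the translocon-associated protein (TRAP) complex. All 10 were among the 56271 genes of the count table and all 10 were among the 12205 genes that passed the filter on low values. Poly-A RNA was sequenced from SKBR3, an established HER2-positive breast cancer cell line, in 4 libraries. In the 2 eGFP control libraries the cells carried a lentivirus expressing eGFP, and in the 2 VIRMA-overexpressing libraries they carried a lentivirus expressing full-length VIRMA with an HA tag together with eGFP. Both populations were sorted for eGFP and both viruses used the ubiquitin C promoter, so the cells of each group were sorted transduced cells and not single clones. VIRMA is a scaffold of the enzyme complex that deposits N6-methyladenosine (m6A) on RNA, and the comparison asks which transcripts differ when it is raised. The culture text given for all 4 libraries describes cells held at low oxygen, together with a protein lysate, and the study's methods for RNA sequencing state no oxygen level, so it is not known for certain; the text is the same for each group.

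Proteins that are secreted or sit in membranes enter the endoplasmic reticulum (ER) through the SEC61 channel. SEC61 alpha forms the pore, and the small beta and gamma subunits each cross the membrane once at its side. The signal recognition particle (SRP) brings ribosomes with a new signal sequence to the channel, while SEC62 and SEC63 help proteins that enter after, or late in, their synthesis. SEC63 carries a J domain on the lumenal side that engages the chaperone BiP, the product of HSPA5. The TRAP complex sits beside the channel and assists clients whose signal sequences open it poorly. Several of these genes are known targets of the unfolded protein response (UPR), the program that enlarges the ER when unfolded proteins collect there. HER2 itself enters the ER by this route.

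The libraries held 81446932 to 86375474 counts. VIRMA (listed as KIAA1429), which checks the labels, had 8.62 and 8.23 CPM in control cells and 40.5 and 41.8 CPM in VIRMA-overexpressing cells, a log2 fold change of 2.29 (SE 0.069). CPM was taken over the counts of tested genes after TMM scaling, whose factors were 0.968 to 0.973 for the controls and 1.03 for VIRMA-overexpressing cells. The cell line's label was checked on its markers: ERBB2 had 7001 to 7167 CPM in all 4 libraries, the 6 markers of HER2-positive luminal cells (ERBB2, GRB7, EPCAM, KRT8, KRT18 and KRT19) had at least 58.8 RPKM (a level per exonic length) in every library, and ESR1, low in this line, had 24 to 48 counts. Some of these markers differed between the groups: GRB7 had a log2 fold change of 0.43, KRT18 0.075, KRT19 -0.12, EPCAM -0.39 and KRT8 -0.51, all at an adjusted p below 0.05 (edgeR), and their part in the results was not tested. The 8 markers of leukocytes, endothelium and fibroblasts summed to 1462 and 1329 counts in control cells against 910 and 972 in VIRMA-overexpressing cells, of which COL1A1 gave the most, with up to 2 of the 8 at 0 in a library; their part in the results was not tested. In bulk RNA, fewer cells with a transcript and less of it per cell cannot be told apart.

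Promoter sequence is shown for SEC63 and SSR3, whose transcripts rose most, and for SSR2, a TRAP subunit that did not pass the test, since genes of this machinery are known to carry UPR elements near their starts. The sequences come from RefSeq (GRCh38.p14), run 5′ to 3′ on the gene's strand upstream of its most upstream listed start, leave out bases inside an annotated exon of the gene, and are in lower case with every CCACG box, CCAAT box and UPR element core, on either strand, in capitals.
SEC63 (chr6:107958209-107958458, minus strand): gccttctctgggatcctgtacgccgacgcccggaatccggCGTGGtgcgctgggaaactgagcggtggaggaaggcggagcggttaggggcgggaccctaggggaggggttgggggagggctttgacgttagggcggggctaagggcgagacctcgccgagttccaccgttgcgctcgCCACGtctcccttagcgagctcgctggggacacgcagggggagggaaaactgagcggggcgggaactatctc
SSR3 (chr3:156555185-156555367, minus strand): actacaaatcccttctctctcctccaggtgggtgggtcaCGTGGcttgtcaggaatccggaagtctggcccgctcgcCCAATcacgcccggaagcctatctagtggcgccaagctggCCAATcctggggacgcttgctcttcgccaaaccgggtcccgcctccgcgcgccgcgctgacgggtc
SSR2 (chr1:156020960-156021201, minus strand): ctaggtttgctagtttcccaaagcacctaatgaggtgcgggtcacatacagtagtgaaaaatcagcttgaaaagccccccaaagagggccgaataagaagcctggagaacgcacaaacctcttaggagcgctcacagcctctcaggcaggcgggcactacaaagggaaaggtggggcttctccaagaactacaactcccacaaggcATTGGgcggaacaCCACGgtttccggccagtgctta

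The 250 bases before each RefSeq start were searched on both strands for 5 sets of letters: CCACG, the box bound by XBP1 and ATF6; CCAAT, the box of the factor NF-Y; the ER stress response element, written as CCAAT and CCACG with 9 bases between them; its second form, ATTGG and CCACG with 1 base between them; and TGACGTG, the core of the UPR element. A match to the core whose preceding or following base completes CCACG counts for both. All 10 members matched the table, with 1 to 3 windows each. CCACG was found for 9 of the 10 members, all but SEC61B, against 37.5% of all 27305 genes with a promoter. CCAAT was found for 6 members, SSR1, SSR2, SSR3, SSR4, SEC61B and SEC61G, against 37% of genes. These include SSR2, SEC61B and SEC61G, the members not called higher below. SEC61A1, SEC61A2 and SEC63, which were called higher, had matches to CCACG alone. The UPR element core was found for SEC62, SSR3 and SSR4, against 2.06% of genes. In SSR3 and SSR4 it lay before a further start downstream of the first. In SEC62 it lay before the only RefSeq start, but past the gene's first position in the count table, 169966635. All 3 sites thus lay inside the spans annotated for these genes. The complete ER stress response element was found for 0 members and 0.092% of genes, and its second form for 0 members and 0.066% of genes. These are matches of letters in short windows, with no measurement of binding. The shares were not adjusted for base content, number of windows or expression. The median G and C content was 58% over all windows. In the members' most upstream windows it ran from 49.6% (SEC61A1) to 78.8% (SEC61A2), above 58% for all but SEC61A1, SEC61B and SSR2. The 3 sites of the UPR element core are shown with the core in capitals.
SEC62 (chr3:169966780-169966809, plus strand): cctcctcgctcCACGTCAgagggaaccggg
SSR3 (chr3:156554147-156554176, minus strand): ctgataacagcCACGTCAgcaaggaaacta
SSR4 (chrX:153794529-153794558, plus strand): cagggaggggcCACGTCAgtgctgccagag
In all 3 the core lies on the strand opposite to the gene and is preceded, as read here, by a C that completes a CCACG box.

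Across the 10 genes, 7 were higher in the VIRMA-overexpressing cells at an adjusted p below 0.05 (edgeR quasi-likelihood test, Benjamini-Hochberg adjustment over all 12205 tested genes), 1 was lower and 2 did not pass. Of all tested genes, 35.1% were higher and 35.9% lower at the same threshold, so 71% changed in either direction and a call on its own says little about these 10. SEC63, SSR3 and SSR4 rose most, by 1.59-fold, 1.53-fold and 1.36-fold, and SEC62, SSR1, SEC61A2 and SEC61A1 rose by 1.22-fold, 1.24-fold, 1.16-fold and 1.12-fold. SEC61B was the gene that fell, to 0.940 of its control level. The median log2 fold change was 0.25 over the 10 genes and 0.012 over all tested genes. None passed a 2-fold change, which 4.52% of all tested genes passed upward and 2.93% downward. The VIRMA-overexpressing and control libraries did not overlap for 8 of the 10, 7 of them higher and 1 lower; of all tested genes 42.7% were higher and 41.6% lower without overlap, 84.3% in all. Together the 10 genes took 0.152% and 0.148% of the counts of the control libraries and 0.188% and 0.186% of those of the VIRMA-overexpressing libraries. SEC63, SSR3, SSR4, SSR1, SEC62 and SEC61A1 kept their call in all 13 alternative analyses; those of SEC61A2 and SEC61B were lost in some of them.

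**Figure D1:**
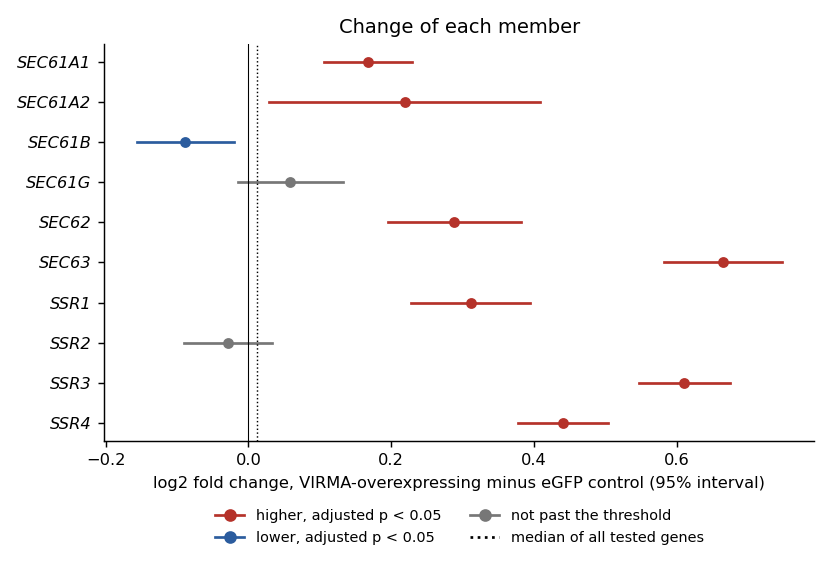
Log2 fold change of each of the 10 genes (VIRMA-overexpressing minus eGFP control, horizontal axis) with its 95% interval; the dotted line is the median of all 12205 tested genes, 0.012. SEC63 and SSR3 lie furthest to the right at 0.66 and 0.61, SEC61B lies below 0, and the intervals of SEC61G and SSR2 include 0; the sign of SSR2 turns positive under upper-quartile factors or library totals alone.

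The pore subunit SEC61A1 (chromosome 3, 128051641 to 128071683, plus strand, GRCh38) had 287 and 282 CPM in the control libraries and 322 and 316 CPM in VIRMA-overexpressing cells. Both VIRMA-overexpressing values lay above both controls, a log2 fold change of 0.17 (SE 0.030, adjusted p = 7.85e-06, edgeR). SEC61A2 (chromosome 10, 12129637 to 12169961, plus strand), its paralog, had 12.8 and 10.6 CPM in control cells and 14.3 and 12.9 CPM in VIRMA-overexpressing cells. The groups did not overlap, but control replicate 1 and VIRMA-overexpressing replicate 2 nearly touched, and the control replicates differed from each other by more than the group means did. The log2 fold change was 0.22 (95% interval 0.030 to 0.41, adjusted p = 0.036, edgeR), and the call was lost under DESeq2 (0.22, adjusted p = 0.095) and in each of 3 other filters on low counts. Without control replicate 2 the log2 fold change of SEC61A2 was 0.088 and without VIRMA-overexpressing replicate 1 it was 0.14, neither past the threshold. Per length, SEC61A2 supplied 5.09% and 4.31% of the alpha subunit transcripts in control cells and 5.06% and 4.67% in VIRMA-overexpressing cells, so its share overlapped between the groups.

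Of the small subunits, SEC61B was lower in VIRMA-overexpressing cells by a small margin and SEC61G did not pass the test. SEC61B (chromosome 9, 99222064 to 99230615, plus strand), the beta subunit, had 149 and 152 CPM in control cells and 144 and 140 CPM in VIRMA-overexpressing cells. Both VIRMA-overexpressing values lay below both controls, by a log2 fold change of -0.089 (SE 0.034, adjusted p = 0.019, edgeR). This small difference missed the threshold when scaled by upper-quartile factors (-0.017) or library totals alone (-0.0028), nor without control replicate 2 (-0.076) or VIRMA-overexpressing replicate 2 (-0.070). SEC61G (chromosome 7, 54752250 to 54759974, minus strand), the gamma subunit, had 141 and 140 CPM in control cells and 140 and 152 CPM in VIRMA-overexpressing cells. The groups overlapped, since VIRMA-overexpressing replicate 1 sat at the control level and replicate 2 above it. Its log2 fold change was 0.059 (95% interval -0.014 to 0.13, adjusted p = 0.14, edgeR). The value passed the threshold without VIRMA-overexpressing replicate 1 (0.12), with upper-quartile factors (0.13) and with library totals alone (0.14), and was -1.07e-05 without VIRMA-overexpressing replicate 2.

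SEC63 (chromosome 6, 107867756 to 107958189, minus strand), whose J domain engages BiP, had the largest difference of the 10. It had 51.7 and 50.7 CPM in control cells and 81.4 and 81.1 CPM in VIRMA-overexpressing cells. The replicates of each group lay close together while the groups were far apart, with a log2 fold change of 0.66 (SE 0.041, adjusted p = 1.25e-16, edgeR). SEC62 (chromosome 3, 169966635 to 169998373, plus strand), its partner, had 72.7 and 72.9 CPM in control cells and 95.3 and 82.7 CPM in VIRMA-overexpressing cells. The controls were nearly equal and both VIRMA-overexpressing libraries lay above them, replicate 1 further than replicate 2. The log2 fold change of SEC62 was 0.29 (SE 0.046, adjusted p = 8.81e-07, edgeR), and without VIRMA-overexpressing replicate 1 it was 0.18, still past the threshold.

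Within the TRAP complex 3 subunits rose and the fourth did not pass the test. SSR1 (chromosome 6, 7268306 to 7347446, minus strand), the alpha subunit, which binds calcium, had 58.7 and 58.2 CPM in control cells and 73.6 and 71.6 CPM in VIRMA-overexpressing cells, a log2 fold change of 0.31 (SE 0.041, adjusted p = 2.46e-08, edgeR). SSR2 (chromosome 1, 156009048 to 156020959, minus strand), the beta subunit, had 375 and 358 CPM in control cells and 362 and 356 CPM in VIRMA-overexpressing cells. The groups overlapped, and the spread between the controls was wider than the difference of the means. The log2 fold change of SSR2 was -0.029 (95% interval -0.090 to 0.033, adjusted p = 0.41, edgeR), and it turned positive with upper-quartile factors (0.043), with library totals alone (0.057) and without control replicate 1 (0.00062).

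SSR3 (chromosome 3, 156540140 to 156555184, minus strand), the gamma subunit, had 199.9 and 193 CPM in control cells and 297 and 304 CPM in VIRMA-overexpressing cells. Both VIRMA-overexpressing libraries stood well above both controls, with a log2 fold change of 0.61 (SE 0.032, adjusted p = 8.72e-19, edgeR). SSR4 (chromosome X, 153793516 to 153798505, plus strand), the delta subunit, had 232 and 229 CPM in control cells and 308 and 318 CPM in VIRMA-overexpressing cells. The groups again stood far apart, with a log2 fold change of 0.44 (SE 0.031, adjusted p = 4.78e-15, edgeR).

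**Figure D2:**
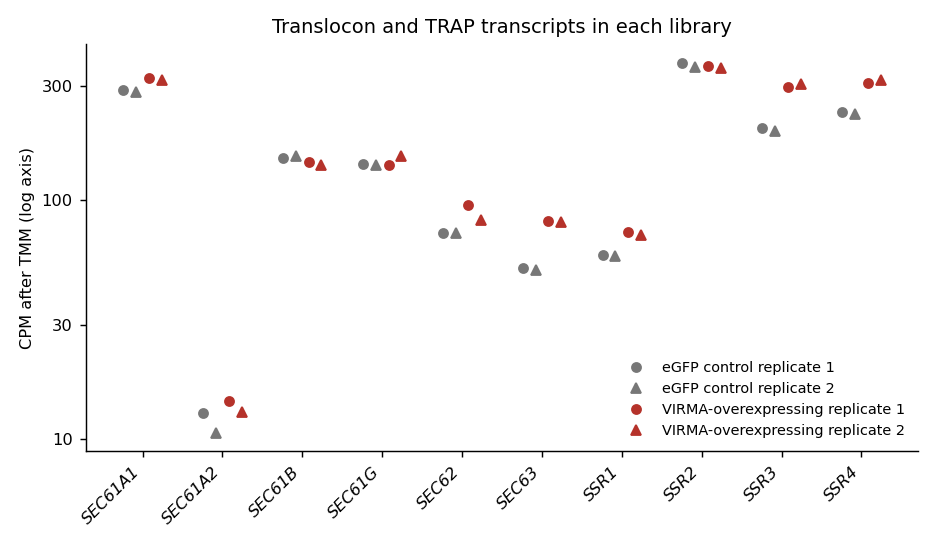
CPM after TMM scaling (vertical log axis) of the 10 genes in each of the 4 libraries; grey is eGFP control, red is VIRMA-overexpressing, and circles and triangles are replicates 1 and 2. The red points lie above the grey ones for 7 genes, below them for SEC61B, and among them for SEC61G and SSR2.

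Levels of different genes were compared per length, as RPKM, the CPM of the library total divided by the exonic length in kilobases, without TMM scaling. With the exonic lengths of the deposited table, SEC61B stood highest in the controls at 122 RPKM, ahead of SEC61G at 73.2, SEC61A1 at 58.2, SSR2 at 53 and SSR4 at 48.3. SSR3 followed at 40.9 RPKM, and the other members were far lower, SEC62 at 8.84, SEC63 at 5.74, SSR1 at 4.96 and SEC61A2 at 2.88. No neighbours in that order overlapped between the control replicates. In the VIRMA-overexpressing cells SSR4, at 69.5 RPKM, stood level with SEC61A1 at 69.3, their replicates overlapping, and SSR3, at 66.1, stood above SSR2, at 55.1. The deposited length joins every annotated exon of a gene and is much longer than the main transcript for some members: 4590 bases against 608 for SSR4, and 6651 against 1108 for SSR2. With the length of the Ensembl canonical transcript instead, a choice made after the data were seen, SSR4 stood highest in the controls at 365 RPKM, then SSR2 at 318, SEC61G at 317, SEC61B at 257 and SEC61A1 at 76.7; the replicates of SSR2 and SEC61G overlapped. By this length SSR3, at 72.2 RPKM in VIRMA-overexpressing cells, stayed far below SSR2, at 331, so the order of these members rests on the length. In control cells SSR3, SEC62, SEC63, SSR1 and SEC61A2 were the lowest 5, in that order, with both lengths. SSR1, the TRAP alpha subunit, was thus measured at a small part of the level of its partners by either length. Both lengths are long for SSR1, 11349 and 9661 bases, and whether the cells use them in full was not tested. Without a length, the control mean was 58.5 CPM for SSR1 and 196.5 CPM for SSR3, the nearest of its partners.

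Ratios between subunits within a library do not depend on library scaling, and their change between the groups does not depend on the length used. The SSR3 to SSR2 ratio of RPKM was 0.766 and 0.775 in control cells and 1.18 and 1.23 in VIRMA-overexpressing cells. The SSR4 to SSR2 ratio was 0.896 and 0.926 in control cells and 1.23 and 1.29 in VIRMA-overexpressing cells. Both gamma and delta thus gained on beta, by log2 changes of the ratio of 0.64 and 0.47. SSR1 also gained on SSR2, whose ratio to SSR1 was 10.9 and 10.5 in control cells and 8.40 and 8.50 in VIRMA-overexpressing cells. Among the subunits that rose, the SSR4 to SSR3 ratio was 1.17 and 1.19 in control cells and 1.05 and 1.05 in VIRMA-overexpressing cells, so gamma gained slightly on delta.

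In the channel, the SEC61B to SEC61A1 ratio was 2.06 and 2.13 in control cells and 1.76 and 1.75 in VIRMA-overexpressing cells. The SEC61G to SEC61A1 ratio was 1.25 and 1.26 in control cells and 1.11 and 1.23 in VIRMA-overexpressing cells. Both small subunits had less transcript relative to the pore subunit, gamma by a margin that was narrow in replicate 2. The SEC63 to SEC61A1 ratio was 0.0988 and 0.0983 in control cells and 0.138 and 0.140 in VIRMA-overexpressing cells. SEC62 per SEC63 was 1.52 and 1.56 in control cells and 1.27 and 1.10 in VIRMA-overexpressing cells, so the pair did not rise in step. Of the 12 ratios computed, 11 had groups that did not overlap, and the SEC61A2 to SEC61A1 ratio overlapped. Single tested genes did not overlap in 84.3% of cases, and ratios of other gene pairs were not computed. The 12 ratios also share genes, so their count says little about these pairs. With 2 libraries against 2, the exact two-sided permutation test of a ratio cannot give a p below 0.333, the value of each of those 11, so none can pass 0.05.

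**Figure D3:**
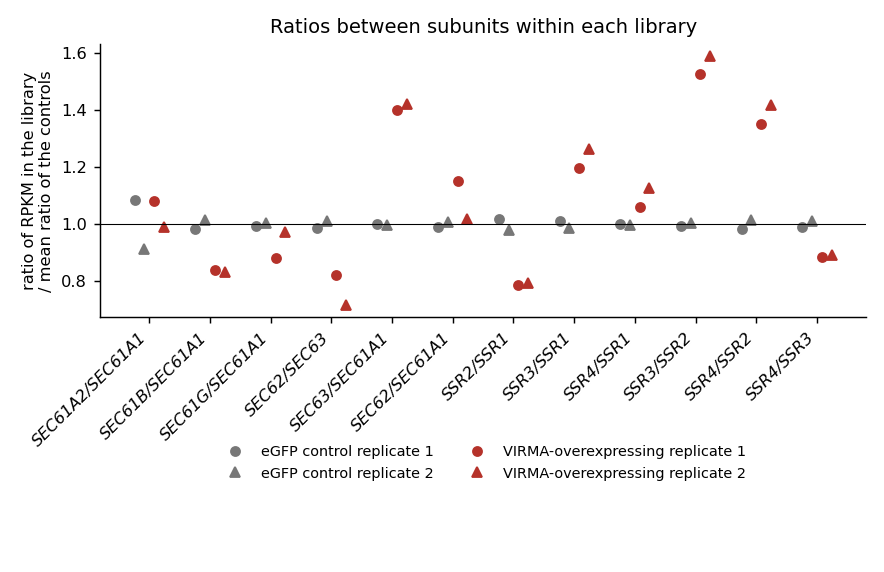
Ratio of RPKM between pairs of subunits in each library, divided by the mean ratio of the 2 controls (vertical axis); grey is eGFP control, red is VIRMA-overexpressing, and circles and triangles are replicates 1 and 2. SSR3/SSR2, SSR4/SSR2 and SEC63/SEC61A1 lie well above 1 in both VIRMA-overexpressing libraries, SEC62/SEC63, SSR2/SSR1 and SEC61B/SEC61A1 well below 1, and SEC61A2/SEC61A1 overlaps.

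The other genes of the pathway were taken from 9 lists of 57 genes, of which 56 were tested. In these lists 20 genes were higher and 25 lower, with a median log2 fold change of -0.11, against the background of 35.1% and 35.9%. Upstream of the channel, 3 of the 6 SRP proteins were higher and 2 lower. SRP19, an assembly factor that binds SRP RNA, rose by 0.56 on the log2 scale and SRP54, which reads the signal sequence, by 0.48. The SRP14 and SRP9 pair, which slows the ribosome, fell by 0.35 and 0.28. Of the SRP receptor, SRPRA rose by 0.20, while SRPRB, its membrane anchor, had a log2 fold change of -0.019 that did not pass and turned positive under upper-quartile factors (0.053) and library totals alone (0.067).

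The list of 12 translocation accessory factors had a median log2 fold change of 0.53, with 10 higher and 2 lower. It joins TRAM1, TRAM2 and TMEM33 with ER chaperones and their co-factors, which make up the rest of the list and were all higher. Some of these also fold proteins in general, such as CALR (0.55) and CANX (0.32). The median therefore mainly describes chaperones and their co-factors. HSPA5 (BiP), the lumenal motor that SEC63 engages, had 554 ± 1.1 CPM in control cells and 1490 ± 3.3 CPM in VIRMA-overexpressing cells (SD, n = 2), a log2 fold change of 1.43. DNAJB9, a BiP co-chaperone, had a log2 fold change of 1.34. The other members of this list past 2-fold were named after their values were seen. HYOU1, an exchange factor of BiP, had 1.24 and DNAJB11, another co-chaperone, 1.00. The 2 that fell were TRAM2, at -0.65, and TMEM33, at -0.15, whose call was lost under DESeq2 and 2 scalings, without control replicate 2 (-0.086) and without VIRMA-overexpressing replicate 1 (-0.097). TRAM1, the paralog of TRAM2, was also named after its value was seen and rose by 0.51. It averaged 200 CPM in control cells and 284 CPM in VIRMA-overexpressing cells, against 25.2 and 16.1 CPM for TRAM2. On the same log2 scale the 95% interval of SEC63 ended at 0.75 and that of SSR3 at 0.68. Both ends lay below the values of HSPA5, DNAJB9, HYOU1 and DNAJB11, and the differences between genes were not tested.

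Behind the channel, the list of 6 genes named signal peptidase held its subunits and HM13, a separate signal peptide peptidase. In this list 3 genes were higher and 2 lower, and HM13 (-0.043) did not pass. The number higher fell to 1 with each of 3 other filters. SEC11C, a catalytic subunit, rose by 0.48 on the log2 scale, and SEC11A, the alternative catalytic subunit, fell by 0.34, while SPCS1 fell by 0.24. SPCS2 had a log2 fold change of 0.10, which was lost under 3 other filters, without control replicate 2 (0.095) and without VIRMA-overexpressing replicate 2 (0.058). Of the 4 genes of ribosome binding at the ER membrane, RRBP1 rose by 0.099, a call lost with edgeR's filterByExpr, and CKAP4 fell by 0.25. LRRC59 and KTN1 lost their calls under upper-quartile factors and library totals alone. LRRC59, at -0.091, also lost it without control replicate 1 (-0.076) or VIRMA-overexpressing replicate 1 (-0.083), and KTN1, at -0.12, without control replicate 2 (-0.11) or VIRMA-overexpressing replicate 2 (-0.11).

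The genes that serve the insertion of membrane proteins were more often lower than higher. In the multipass translocon, a set of proteins that joins SEC61 to insert proteins with many membrane spans, 5 of the 8 tested genes were lower and 1 higher, with a median of -0.30. Its largest falls were RAB5IF (listed as C20orf24) at -0.90 and NCLN at -0.69; NOMO1 fell by 0.29, with the caveat that NOMO1, NOMO2 and NOMO3 are near-identical copies whose reads the counting could split. CCDC47 had 0.091, a call lost with 3 other filters and without control replicate 2 (0.075) or VIRMA-overexpressing replicate 2 (0.074). Of the 10 genes of the ER membrane complex, an insertase, 7 were lower and 1 higher, with a median of -0.33; EMC8 fell by 0.55, EMC3 by 0.46 and EMC1 by 0.25. The exception, EMC2 at 0.50, was measured at only 2.77 CPM in control cells and 3.92 CPM in VIRMA-overexpressing cells, and lost its call without control replicate 1 (0.34) or VIRMA-overexpressing replicate 2 (0.47).

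Of the 7 genes of the tail-anchor pathway, which delivers proteins anchored at their end, 4 were lower and 3 did not pass, with a median of -0.25. UBL4A fell by 0.86 on the log2 scale, GET3 (listed as ASNA1), the ATPase of the route, by 0.82, SGTA by 0.34 and GET1 (listed as WRB) by 0.25, the last a call lost with library totals alone. TMEM208, of the SRP-independent route, had a log2 fold change of -0.066 that did not pass and turned positive under upper-quartile factors (0.0050) and library totals alone (0.019). The translocation accessory list, mostly ER chaperones and their co-factors, thus had the highest median of the 9 and the ER membrane complex the lowest. No test between the lists was made.

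**Figure D4:**
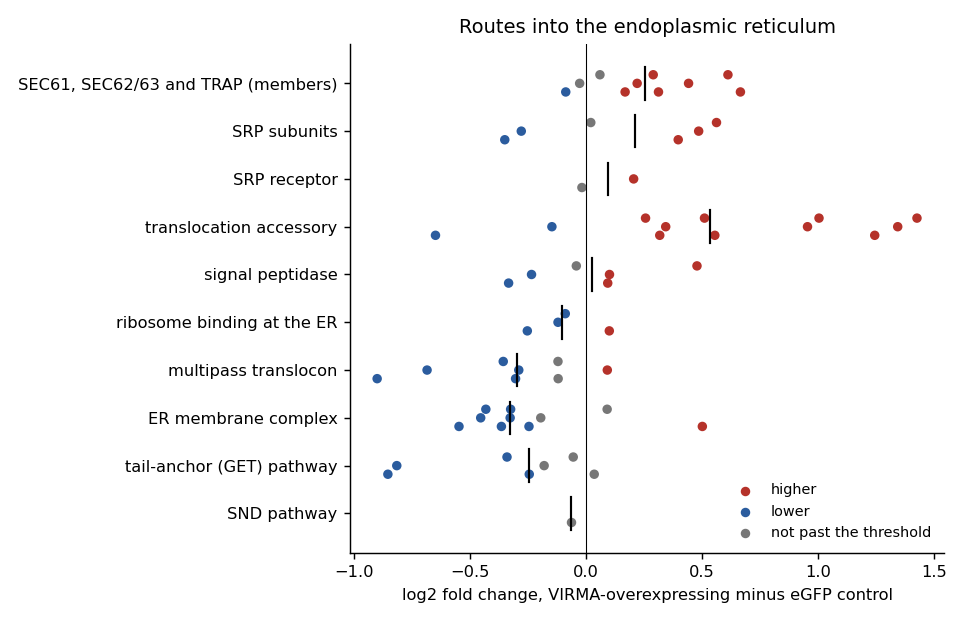
Log2 fold change (VIRMA-overexpressing minus eGFP control, horizontal axis) of each tested gene of the 10 members and of the 9 pathway lists; red is higher and blue lower at an adjusted p below 0.05, grey did not pass, and the black bar is the median of the list. Points of the accessory list reach 1.43, and most points of the multipass translocon, ER membrane complex and tail-anchor lists lie below 0; the sign of SSR2, SRPRB and TMEM208, all grey, turns positive under 2 other scalings.

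The 5 tested genes whose profile lay nearest the median profile of the members, by Euclidean distance between log2 CPM centred over the 4 libraries, were SLC45A3, QRSL1, PYGB, MYCBP2 and ETFDH. Their distances ran from 0.0044 to 0.013, and their log2 fold changes from 0.25 to 0.27. These 5 were picked for the smallest distances, so the members, at 0.071 for SSR1 to 0.41 for SEC63 from their own median profile, cannot be compared with them. With 4 libraries in 2 groups, such a profile holds little more than the group difference.

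Some members share exon positions with other genes of the table. SEC61A1 shares 344 bases with RUVBL1, 7.32% of its exonic length, SEC61A2 387 bases with NUDT5, 9.88%, and SSR4 278 bases with IDH3G, 6.06%, each on the opposite strand. The kit kept strand, but whether the counting used it is not stated. Whether reads there were counted for either gene, for both or for neither is therefore not known. RUVBL1 had 5454 and 5643 counts in control cells against 4853 and 4819 in VIRMA-overexpressing cells, NUDT5 5908 and 5953 against 4862 and 4473, and IDH3G 7145 and 6953 against 6318 and 6312. All 3 had fewer counts in VIRMA-overexpressing cells, where their partners among the members had more. SEC63 shares 304 bases with RP1-191J18.66, which had 124 to 178 counts in a library, and the overlaps of SEC62 with RP11-379K17.4 and of SSR1 with CAGE1 and RP11-69L16.4 involve rows with at most 10 counts. Of the pseudogenes in the table, SSR4P1 had 72 to 100 counts and SEC63P1 3 to 5, both small beside the counts of SSR4, 18965 to 26316, and of SEC63, 4203 to 6902.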

How the data were processed

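Per the labels and the study's methods, the authors used Trimmomatic 0.39 for trimming, STAR 2.5.2a for alignment to hg38 (Ensembl 86) and featureCounts for counting per gene; strand and multi-mapping settings are not stated. The deposited values are raw counts, not normalized, with each gene's exonic length. The control columns are named as such; the other columns show only a number and a replicate and were taken by elimination for VIRMA-overexpressing cells, which the VIRMA count checks. RPKM was computed from library totals and deposited lengths. Genes above 1 RPKM in at least 2 libraries were tested with edgeR 4.0.16 in R 4.3.3 (quasi-likelihood test, TMM, group as the only term, Benjamini-Hochberg adjustment). The test was first checked on simulated counts in which few genes changed and every gene had the same dispersion. That check cannot show how the test performs where most genes pass, as here. The SE is the estimate over the square root of F. Alternatives were DESeq2 1.42.0, limma-voom (limma 3.58.1), 3 scalings, 3 filters, the replicate number as a block and leaving out each library. The members and the 9 lists were chosen with earlier results of these data known. Named genes are the members, VIRMA, the 5 nearest profiles and genes overlapping members. Of each list, up to 2 genes at each end of its called genes were named (all in lists under 3 genes). HYOU1, DNAJB11, TRAM1, CALR, CANX and HM13 were added after their values were seen. Replicates are the study's biological duplicates. Replicates differed by more than sampling noise (chi-square per degree of freedom 7.87 for controls and 6.17 for VIRMA-overexpressing cells). Whether differences between the sorted pools come from VIRMA or from the pools cannot be told apart. Positions of all members overlap those of GENCODE v44, from which canonical transcript lengths were taken. Sequences are from RefSeq (GRCh38.p14); protein sequences were not used here.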

Additional observations from a re-analysis of the deposited data

How the results depend on the processing

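Each member was refitted in 13 alternatives, and 6 of the 10 (SEC61A1, SEC62, SEC63, SSR1, SSR3 and SSR4) kept direction and call in all of them. SEC61A2 lost its call under DESeq2 (0.215), filterByExpr (0.176), no filter (0.186) and at least 10 counts in every library (0.190). SEC61B lost its call with upper-quartile factors (-0.017) and library totals (-0.0028), where SEC61G gained one (0.13 and 0.14), SSR2 turned positive (0.043 and 0.057), SRPRB turned positive (0.053 and 0.067) and TMEM208 turned positive (0.0050 and 0.019); these 2 settings moved the median of all genes by 0.072 and 0.086 on the log2 scale by construction. With filterByExpr SSR2 passed as lower (-0.072, adjusted p = 0.0499). The number of lower members was 0 with upper-quartile factors, 0 with library totals and 2 with filterByExpr, and the median over members was 0.326, 0.340 and 0.210 there, 0.220 with no filter and 0.224 with at least 10 counts. Leaving out each library in turn gave 0.088 to 0.36 for SEC61A2, -0.11 to -0.070 for SEC61B, -1.07e-05 to 0.12 for SEC61G, -0.062 to 0.00062 for SSR2, 0 to 1 lower members, a median over members of 0.168 to 0.312, -0.045 to 0.0035 for SRPRB and -0.069 to 0.18 for the log2 change of the SEC61A2 to SEC61A1 ratio. Apart from the scalings' construction, the cause of these changes was not tested. With the length of the canonical transcript, chosen after the data were seen, SEC61A2 supplied 5.55% of alpha transcripts on average in control cells and 5.75% in VIRMA-overexpressing cells. Without a filter, where more genes are tested, 14.4% of all tested genes were higher and 15.3% lower, from 35.1% and 35.9%.

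The labels give replicates 1 and 2 in both groups but no shared day or batch, and deviations of libraries with the same number correlated at 0.075, so the numbers were not taken as pairs. With the replicate block, 7 members were higher and 1 lower, as without it, with log2 fold changes of 0.67 for SEC63, 0.61 for SSR3 and 0.22 for SEC61A2 (adjusted p = 0.017, edgeR). With 2 libraries a group, the test rests on the spread shared across genes, and differences as small as that of SEC61B are at the limit of what the scaling settles.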
